A study of Mus musculus with 2 samples.

Results

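The 8 matrix genes described here were compared between liver-metastatic and parental mouse mammary carcinoma cells, and Pcolce, Ecm1 and Fbln1 were higher in the metastatic cells while Fbln2 was not. The members were the fibulin genes Fbln1, Fbln2, Efemp1 and Efemp2, the fibrillin gene Fbn1, and the genes Ecm1, Pcolce and Fstl1 for other secreted proteins of connective tissue. All probe sets annotated with exactly 1 of these 8 symbols were taken, which gave 11 probe sets for 6 genes, out of 34945 probe sets with a single gene symbol. Efemp2 and Fbn1 had no probe set listed under their symbols and were not analysed here. The list was selected on log2 ratios already known from these same 2 arrays, so the ratios of its members are a description and were not tested.

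The 2 arrays were 1 of the 4T1 parental line, a mammary carcinoma line from a BALB/c mouse, and 1 of the 4T1-3R liver metastatic cells, abbreviated 4T1-3R_L. The second population had been recovered from liver metastases in vivo, and both were cultured before total RNA was extracted. The labels name no treatment, and do not say whether 4T1-3R_L is a single clone or a pool, or how many passages separated the 2 cultures. There was 1 array in each group, so no value has a replicate error, and every difference describes these 2 RNA samples only. In RNA from whole cultures, more cells that make a transcript cannot be told apart from more transcript in each cell.

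Elastic fibres consist of an elastin core on a scaffold of fibrillin microfibrils, and fibulins are calcium-binding glycoproteins that link elastin, microfibrils and basement membranes. PCOLCE binds the propeptides of fibrillar procollagens and raises the activity of BMP1-type proteinases that remove them. ECM1 is a secreted glycoprotein that binds perlecan, fibulins and the gelatinase MMP9, and FSTL1 is a secreted protein with a follistatin-like domain. In tissues these genes are known mainly from fibroblasts and other stromal cells, though carcinoma cells can also make their products.

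Levels were read as MAS5 signals, linear intensities for each probe set, and a signal below 90.6, the median signal over both arrays and here called the floor, was treated as not measured. If only 1 of the arrays reached the floor, the fold was computed against the floor and is a lower bound. Of the 6 genes with a probe set, Pcolce, Ecm1 and Fbln2 were measured on both arrays, Fbln1 reached the floor only on the 4T1-3R_L array, and Efemp1 and Fstl1 lay under it on both. A gene that passes through 1 array alone is bound to differ, so the count of 3 members at least 2-fold higher among the 4 measured supports nothing by itself. Among the 11135 genes measured, a share of 6.22% was higher in 4T1-3R_L cells by 2-fold or more, 4.48% was lower by that size, and 1.02% was higher by 4-fold or more. The members were selected on this comparison, so nothing is read from their count beside these shares. The median log2 ratio was 2.70 over the 4 measured members, 1 of them at its bound, and -0.01 over all measured genes. The members' median was 1.79 over plain _at probe sets, without Pcolce, and 1.52 with a pseudocount and no filter, which brings in Efemp1 and Fstl1.

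Pcolce, the procollagen C-proteinase enhancer, had 2 probe sets, both well above the floor on each array. Probe set 1437165_a_at read 1590 for parental and 13959 for 4T1-3R_L cells, and probe set 1448433_a_at gave 730.5 and 5626. Both were therefore higher in the metastatic cells than in the parental line. The folds were 8.78 and 7.70, or log2 ratios of 3.13 and 2.95 on the 2 probe sets. Pcolce ranked 18th from the highest log2 ratio among 11135 measured genes.

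Ecm1 was read by 1 probe set, 1448613_at, with signals of 888.1 (parental) and 5553 (4T1-3R_L). This was a 6.25-fold difference, a log2 ratio of 2.64, and rank 48. No other Ecm1 probe set was listed, so no second reading of this gene was available. Both signals were above the floor, and the ratio does not rest on it.

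Fbln1, fibulin-1, had 3 probe sets that did not read alike. Probe set 1451119_a_at gave 30.6 on the parental array and 611.9 on the other, which is at least 6.75-fold higher. Probe set 1422540_at gave 30.2 and 312.9, at least 3.45-fold higher. The third, 1439688_at, gave 69.8 and 70.8 and lay under the floor on both arrays. Fbln1 was thus not measured in the parental line by any of the 3 and was measured by 2 of them in 4T1-3R_L cells. Fibulin-1 transcripts are known to differ at their 3′ ends by splicing, but which transcripts each probe set reads was not tested. The bound depends on the floor, and its log2 value of 2.76 was 1.86 with the floor at the 60th percentile of all signals and 3.44 at the 40th.

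Fbln2, fibulin-2, was measured on both arrays. Its probe set 1423407_a_at gave 3857 in parental and 3122 in 4T1-3R_L cells, and 1438375_at gave 239.3 and 154.4. Both readings were lower in the metastatic cells, by 1.24-fold and 1.55-fold, or log2 ratios of -0.31 and -0.63, and neither reached 2-fold. Fbln1 and Fbln2 therefore lay on opposite sides of the median gene.

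Efemp1, which encodes fibulin-3, had signals of 0.4 and 11.6 in parental and 4T1-3R_L cells. Fstl1 had signals of 30.5 and 59.3 on probe set 1416221_at and 52.4 and 60.5 on 1448259_at. All 6 of these signals were under the floor, so no fold is given for either gene. Counted by probe set, 7 of the 11 were measured and 5 of those 7 were higher in 4T1-3R_L cells by 2-fold or more. The share was 5.68% over all 20463 measured single-gene probe sets. Both Fbln1 probe sets among the 5 passed the floor only on the 4T1-3R_L array and were bound to differ. The members were also selected on this comparison, so nothing is read from this count. The 5 became 4 with the floor at the 60th percentile, where 1 Fbln1 probe set came under 2-fold.

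**Figure D1:**
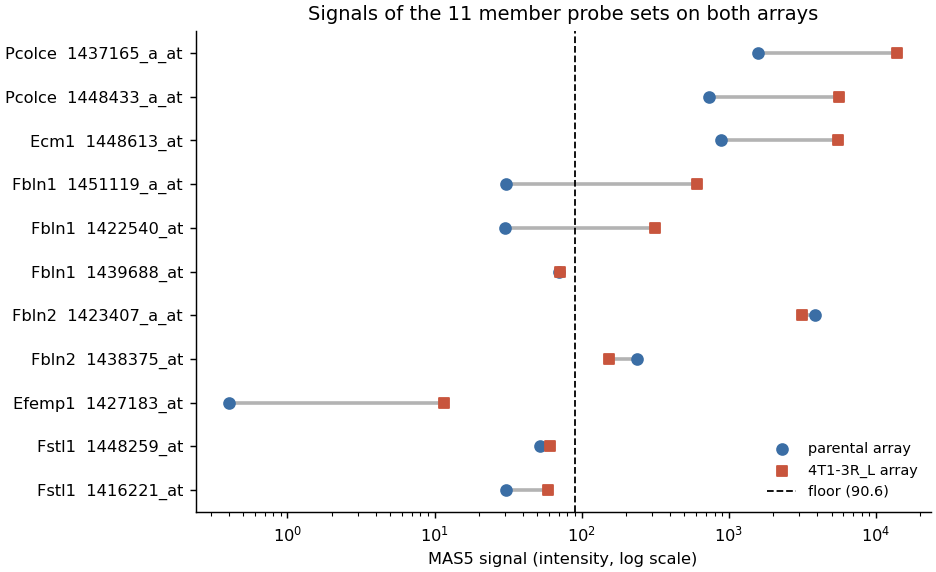
MAS5 signal on a log axis for each of the 11 member probe sets, with a circle for the parental array, a square for the 4T1-3R_L array and a dashed line at the floor of 90.6. Both Pcolce probe sets, the Ecm1 probe set and 2 of the 3 Fbln1 probe sets have squares far to the right of their circles, while both Fbln2 squares lie to the left and Efemp1 and Fstl1 stay under the floor.

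The ratios depend on how the arrays are scaled to each other. Scaling to the hybridisation controls, bacterial and phage RNAs added with the labelled sample, moved the median of all measured genes to -0.55 on the log2 scale. Under it the log2 ratios were 2.55 for Pcolce, 2.06 for Ecm1, 2.46 for Fbln1 and -0.89 for Fbln2. Relative to the median gene these are 3.10, 2.61, 3.01 and -0.34, beside 3.14, 2.65, 2.76 and -0.30 with the deposited scaling.

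**Figure D2:**
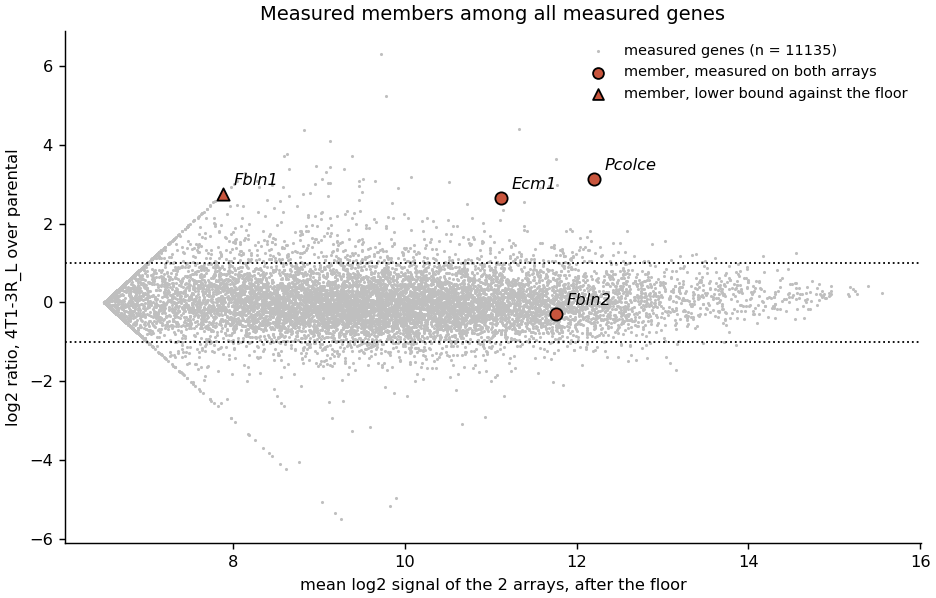
Log2 ratio of 4T1-3R_L over parental signal against the mean log2 signal after the floor, for 11135 measured genes (grey points) and the 4 measured members (red; the triangle marks a lower bound), with dotted lines at 2-fold. Pcolce (3.13), Fbln1 (2.76) and Ecm1 (2.64) lie in the thin upper edge of the cloud and Fbln2 (-0.31) lies within it.

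The label of an elastic fibre group was set against the genes that define such fibres. The list held 23 genes of elastic fibres and microfibrils other than the members, of which 22 had a probe set and 12 were measured. Elastin itself, Eln, had signals of 59.4 and 63.6, and Fbn2, Fbln5, Mfap2, Mfap4, Mfap5 and Lox, the genes for further microfibril proteins, a fibulin and an elastin cross-linking enzyme, also had no signal above the floor. Of this list only components around the core were measured, and the members Fbn1 and Efemp2 had no probe set listed. The members are therefore described here gene by gene and not as an elastic fibre programme.

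Of those 12 measured genes, 3 were higher in 4T1-3R_L cells by 2-fold or more, 0 were lower by that size and 9 lay between. Over all measured genes, 6.22% were higher and 4.48% lower by that size. The list was chosen with earlier results of these data known, so nothing is read from this count. Loxl3, a lysyl oxidase-like enzyme that cross-links collagen and elastin, was 8.73-fold higher, from 177 to 1545. Adamtsl4, which encodes a microfibril-binding secreted protein, was 2.59-fold higher, from 236.9 to 613.7. Ltbp1, which tethers latent TGF-beta to microfibrils, was 2.42-fold higher, from 1652 to 3996, with 2.79-fold on a second probe set whose parental signal of 91.0 was just above the floor. The related genes Ltbp2 and Ltbp4 had log2 ratios of 0.92 and 0.82, and Loxl4 had the lowest of the list at -0.74. The list median was 0.58, beside -0.01 for all measured genes. With the hybridisation control scaling, Adamtsl4 and Ltbp1 came under 2-fold, with log2 ratios of 0.79 and 0.69, and Loxl4 was at least 2-fold lower at -1.32.

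Genes for the substrates and enzymes that PCOLCE acts with were mostly not measured. Among 9 chains of fibrillar collagens, 7 were under the floor on both arrays, including Col1a1 (68.5 and 45.8), Col1a2 and Col3a1. Col5a1, a chain of the minor fibrillar collagen V, was 5.76-fold higher, from 385.2 to 2219, 3.31-fold higher on a second probe set and at least 1.88-fold on the third, from 61.5 to 170.3. Col5a3 barely passed the floor on the 4T1-3R_L array, at 95.1. Of the processing genes, Bmp1, the procollagen C-proteinase itself, had signals of 2315 and 3942 and a log2 ratio of 0.77, with 0.41 on its second probe set. The paralogue Pcolce2 had 2652 and 3963 and a log2 ratio of 0.58, so neither reached the 2-fold size that Pcolce passed on both probe sets.

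Sparc was the 1 gene at least 2-fold higher among the 4 measured of 12 genes with follistatin-like or related domains. This calcium-binding matrix glycoprotein, whose follistatin-like domain resembles that of FSTL1, went from 3236 to 9299, 2.87-fold higher, and was 2.40-fold higher on its second probe set and 1.32-fold on the third, whose parental signal was under the floor. The list had 4 measured genes and 0 at least 2-fold lower, with log2 ratios of 0.44 for Fstl3 and -0.86 for Igfbp7 (-0.32 on its second probe set). Under the hybridisation control scaling the log2 ratio of Sparc was 0.93. Among 7 genes for FSTL1 receptors and bound ligands, 5 were measured and 0 were 2-fold apart in either direction, led in size by Tgfb1 at 0.91, but -0.42 on its second probe set, and Inhba at -0.91.

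Binding partners of the fibulins and ECM1 went both ways. Of 11 genes with a probe set, 6 were measured, 2 of them higher by 2-fold or more and 1 lower. Among all measured genes, 6.22% were higher and 4.48% lower by that size, and nothing is read from this count. Hspg2, perlecan, was 2.49-fold higher on 1 probe set and 1.38-fold on the other, and its log2 ratio of 1.32 was 0.73 with the hybridisation control scaling. The stromelysin Mmp3 was 21.4-fold higher, and the gelatinase Mmp9 was 3.45-fold lower and 4.81-fold lower on a second probe set, in the direction opposite to Ecm1. Nid1, nidogen of basement membranes, had a log2 ratio of 0.39, and -0.20 with the hybridisation control scaling. Fn1, fibronectin, had no settled direction, with 0.12 on 1 probe set and -0.79 on the other, and with -0.02, -0.05, -0.47 and -0.34 under quantile normalization, loess, hybridisation control scaling and the median over probe sets. Vcan and Nid2 were under the floor.

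Integrin subunits that recognise the RGD motif of fibrillins and fibronectin were measured for 7 of 8 genes, with 2 past 2-fold upward and 0 downward. The shares over all measured genes were 6.22% upward and 4.48% downward, and nothing is read from this count. Itga8 was at least 2.81-fold higher, from a parental signal under the floor, and Itga5 was 2.15-fold higher. Both fell short of 2-fold under other settings. The log2 ratio of Itga8 was 0.59 with the floor at the 60th percentile, and that of Itga5 was 0.52 with the hybridisation control scaling. With the median over probe sets they were 0.74 for Itga8 and 0.0 for Itga5. Itgb6, the subunit of an epithelial TGF-beta-activating integrin, was at -0.98, from 178.5 to a signal under the floor, and this bound depends on the settings. It passed 2-fold lower under 5 alternatives, at -1.02 to -1.27, and was -0.08 with the floor at the 60th percentile. With the hybridisation control scaling, where the median gene was at -0.55, several further list genes were lower by more than 2-fold. Their log2 ratios were -1.37 for Itgb1, -1.09 for Itgb5, -1.50 for Inhba, -1.45 for Igfbp7 and -1.30 for Cd14. With the deposited scaling these were -0.78, -0.50, -0.91, -0.86 and -0.71, all within 2-fold. Other probe sets then gave -0.27 and -0.50 for Itgb1 and -0.355 to 0.09 for Itgb5.

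**Figure D3:**
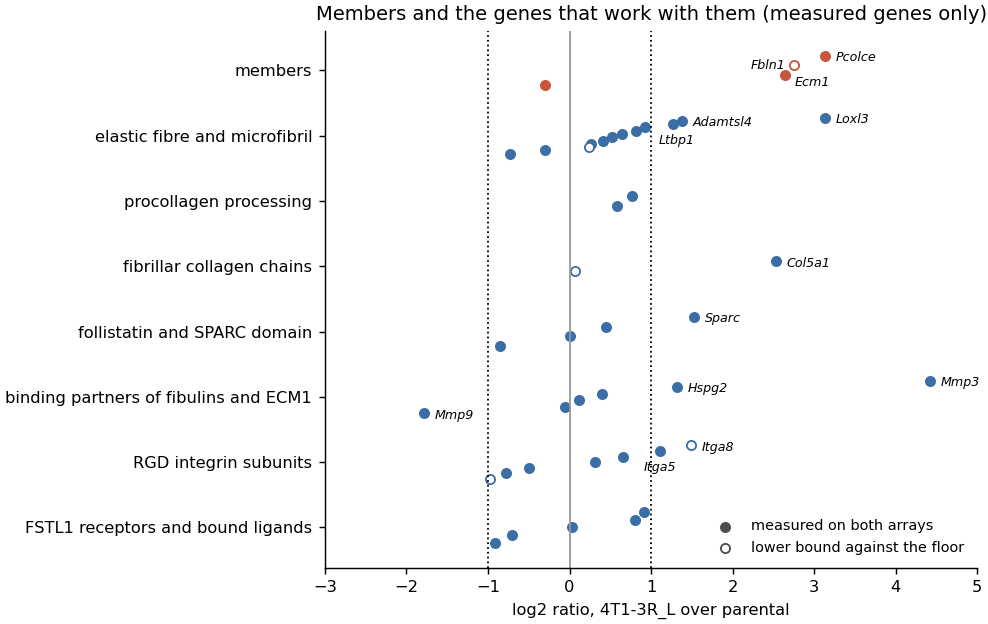
Log2 ratio of 4T1-3R_L over parental signal for the measured members (red) and for the measured genes of 7 lists of matrix partners (blue), with open circles for lower bounds and dotted lines at 2-fold. Most list genes lie between the dotted lines, and those outside to the right are led by Mmp3 (4.42), Loxl3 (3.13) and Col5a1 (2.53).

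The cells were checked for other cell types that express these genes. All 9 markers of carcinoma epithelium were measured on both arrays, and 4 of them were lower in 4T1-3R_L cells by 2-fold or more, beside 4.48% of all measured genes. The tight junction gene Cldn7 went from 5432 to 151.0, 36.0-fold lower, and the basal keratin Krt14 from 5324 to 170.9, 31.2-fold lower, with its second probe set at least 32.2-fold lower. The claudin gene Cldn4 was 4.64-fold lower, from 3338 to 719.4, and the adhesion gene Epcam 4.24-fold lower, from 7536 to 1776, but only -0.59 on the log2 scale by another probe set. Cdh1, E-cadherin, was 1.98-fold lower, from 11787 to 5941. The luminal keratins stayed within 2-fold, with Krt8 at 18784 and 21891 and Krt18 at 23738 and 20614. The median log2 ratio of the 9 was -0.99, and the summed signal was 92075 in parental and 62936 in 4T1-3R_L cells. These epithelial markers thus moved between the same 2 arrays as the members, and their part in the members' differences was not tested. Of 22 markers of fibroblasts and stellate cells, 19 were under the floor on both arrays, Dcn, Lum, Pdgfrb, Thy1 and Fap among them. The other 3 were the receptor gene Pdgfra, from 676.2 to 2549 or 3.77-fold higher (2.47-fold and at least 1.72-fold on its other probe sets), the actin gene Acta2, from 205.3 to 158.9, and the desmin gene Des, from 106.4 to 15.9. The summed signal of the 22 markers was 1744 in parental and 3432 in 4T1-3R_L cells, and 1067 and 883.4 without Pdgfra. No marker of any of these lists was at 0. The 9 small leucine-rich proteoglycan genes of stroma had no signal above the floor on either array. The same held for all 8 hepatocyte and all 10 endothelial markers with a probe set, with summed signals of 208.8 and 175.7 and of 389.6 and 381.0. For smooth muscle 7 of 8 markers were not measured, and for macrophages 8 of 10, with summed signals of 283.0 and 369.7 and of 1595 and 729.3. The macrophage sum was led by Csf1r, from 1026 to 88.1 or at least 11.3-fold lower, but its other probe sets went from 435.2 to 69.0 and, measured on both arrays, from 252.0 to 146.2, which is 1.72-fold lower. Cd68 was at 388 and 374. Of 7 T and B cell markers, 6 were under the floor, and Cd8a was at 108.4 and 105.2, with summed signals of 193.1 and 188.6. Except for carcinoma epithelium, these sums include signals under the floor, and the hepatocyte and endothelial sums hold only such signals. The sums are therefore not read as amounts of a cell type. The part of Pdgfra-expressing or Csf1r-expressing cells in the members' differences was not tested.

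The protein-coding genes beside each member with a probe set were read for the same pattern. The 5 nearest on each side of the chromosome that had a probe set were taken. Beside Ecm1, 9 of 10 neighbours were measured and 2 were at least 2-fold higher, both on the same side. The share over all measured genes was 6.22%. The 2 neighbours were Adamtsl4, the next gene, and Mcl1, an anti-apoptotic BCL2 family gene, at 2.22-fold. The 6 probe sets of Mcl1 ranged from a log2 ratio of 0.04 to 1.15. On the other side Tars2 had log2 ratios of -0.91 and -0.16 on its 2 probe sets, and the 6 probe sets of Rprd2 ranged from -0.70 to 0.21, 4 of them above 0. Beside Pcolce, 8 neighbours were measured with log2 ratios from -0.20 to 0.98, and beside Fbln1, 5 from -0.06 to 0.70, so 0 of these reached 2-fold. Beside Fbln2, 9 were measured and 2 were at least 2-fold lower, where the share over all measured genes was 4.48%. These 2 were the nucleoporin Nup210 at 4.59-fold and the ligand gene Wnt7a at 3.93-fold. Another Wnt7a probe set was at -0.02 on the log2 scale. Beside Efemp1, 9 were measured, 0 were at least 2-fold higher and 1 was at least 2-fold lower, Pnpt1 at 2.07-fold. Other Pnpt1 probe sets had log2 ratios of -0.42 and -0.69. Beside Fstl1, 5 were measured and 0 were 2-fold apart in either direction.

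**Figure D4:**
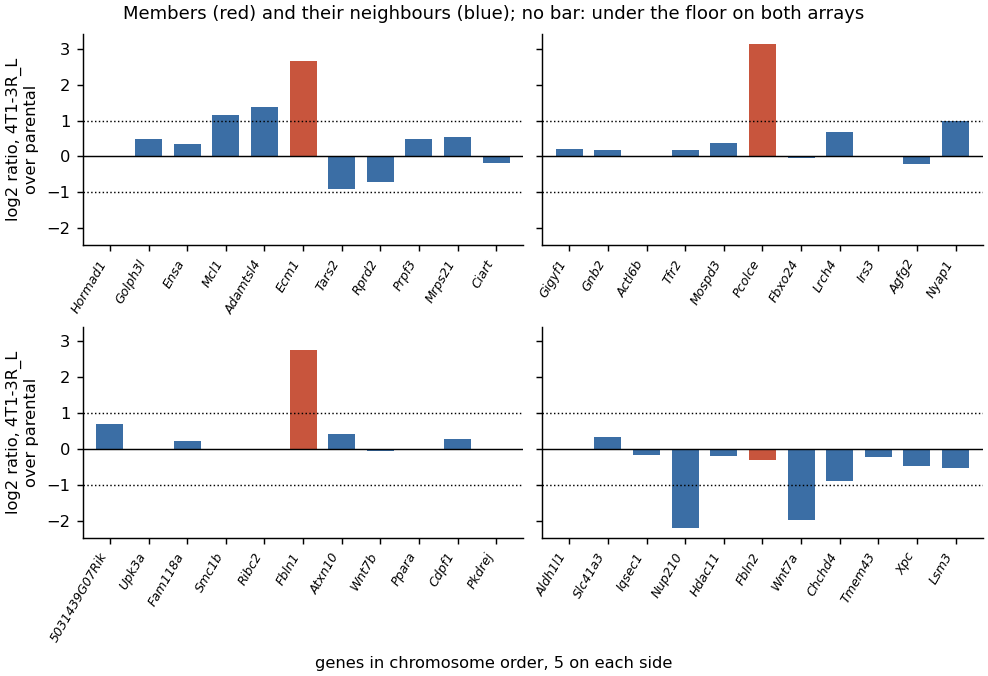
Log2 ratio of 4T1-3R_L over parental signal for Ecm1, Pcolce, Fbln1 and Fbln2 (red) and their neighbours (blue). The neighbours are the 5 nearest protein-coding genes with a probe set on each side, in chromosome order without distances. A gene with no bar did not reach the floor on either array, and the Fbln1 bar is a lower bound. Pcolce and Fbln1 stand alone above 2-fold, and Ecm1 is accompanied by Adamtsl4 (1.37) and Mcl1 (1.15). Beside Fbln2, Nup210 and Wnt7a lie past the lower dotted line.

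The sequences upstream of the 3 higher genes and of Fbln2 are shown because these 4 genes are the members measured, and 3 short motifs were searched in the 250 bases before the transcript start that RefSeq gives. They were the AP-1 site TGANTCA, the hypoxia response core ACGTG and the E-box CACCTG that ZEB and SNAIL proteins bind, each on both strands. Of 32851 RefSeq promoter windows of this length, 6.75% held the first, 16.6% the second and 17.2% the third. All 8 members had a window in the table, from build GRCm38.p6, and the first of 2 is shown for Fbln1. For Ecm1, Pcolce and Fbln2 the RefSeq gene begins further upstream than the start used in the table, so the whole window for Ecm1 and Fbln2 and part of it for Pcolce lies within the gene as RefSeq draws it. Capitals mark the matches. The windows were chr3:95739570-95739819 on the minus strand for Ecm1, chr5:137611405-137611654 on the minus strand for Pcolce, chr15:85205699-85205948 on the plus strand for Fbln1 and chr6:91212514-91212763 on the plus strand for Fbln2.
Ecm1: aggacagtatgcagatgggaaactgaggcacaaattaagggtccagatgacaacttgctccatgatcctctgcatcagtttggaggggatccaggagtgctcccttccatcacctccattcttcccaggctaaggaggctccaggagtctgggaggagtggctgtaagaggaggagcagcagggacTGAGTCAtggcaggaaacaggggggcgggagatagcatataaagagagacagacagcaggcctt
Pcolce: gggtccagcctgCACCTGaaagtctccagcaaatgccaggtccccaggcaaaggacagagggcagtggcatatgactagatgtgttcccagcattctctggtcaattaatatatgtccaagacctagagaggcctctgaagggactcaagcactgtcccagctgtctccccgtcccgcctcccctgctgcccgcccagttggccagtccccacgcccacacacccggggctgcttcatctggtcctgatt
Fbln1: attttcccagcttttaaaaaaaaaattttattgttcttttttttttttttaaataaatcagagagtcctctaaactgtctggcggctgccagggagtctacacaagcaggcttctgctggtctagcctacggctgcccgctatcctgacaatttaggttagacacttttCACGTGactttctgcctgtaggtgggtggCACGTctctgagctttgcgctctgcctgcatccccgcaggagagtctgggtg
Fbln2: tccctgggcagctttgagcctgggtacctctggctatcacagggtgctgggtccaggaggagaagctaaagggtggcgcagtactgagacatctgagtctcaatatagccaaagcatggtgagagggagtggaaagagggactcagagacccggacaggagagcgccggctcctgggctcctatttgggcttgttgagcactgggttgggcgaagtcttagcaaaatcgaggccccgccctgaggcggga

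The Ecm1 window held 1 AP-1 match, TGAGTCA, from 64 to 58 bases before the start. The Pcolce window held 1 E-box match, from 238 to 233 bases before the start. The Fbln1 window held the hypoxia core on both strands of CACGTG, from 81 to 76 bases before the start, and once more on the reverse strand, from 52 to 48. The Fbln2 window held none of the 3 motifs, and no motif was shared by the 3 higher genes. Among the members under the floor, the Efemp1 window held 1 AP-1 match, and the Fstl1 window held none of the 3. These matches describe letters in the reference sequence and do not show that a factor binds there.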

How the data were processed

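The deposited table holds linear intensities, 1 signal per probe set and array, from MAS5 per the submitters' processing notes. For its version, scaling target and detection calls, nothing was given in the sources used here. The table held 45101 probe sets, 64 of them controls, and the mean signal after trimming 2% at each end was 500.003 on both arrays, with medians of 87.4 (parental) and 93.3 (4T1-3R_L).

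Genes were named from the platform annotation. The array number, 1 in each group, limits the precision, and no test was run. Of a gene's probe sets with a single symbol, the 1 brightest on average (log2 signal, after the floor of 90.6) stood for the gene, which counted as measured if it reached the floor on either array. This gave 11135 of 18193 genes. The log2 ratio is 4T1-3R_L over parental.

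Members and lists were chosen with earlier results of these data known. All probe sets of members are given. Of each list, every gene at least 2-fold apart is named, with up to 2 others of the largest ratio. Further genes are named because another setting changed them (Loxl4, Itgb5, Cd14), as not measured, as markers or as neighbours. Loxl1 is named as a measured lysyl oxidase-like gene beside Lox. These choices were made with the values in view. With 2 arrays a pattern is 1 ratio, so no gene is named for likeness. The procedure was tested on simulated arrays with known folds, put only into genes above the floor on both arrays. That test does not cover lower bounds, genes under the floor or the variation between real arrays. Python 3.11.15, pandas 2.3.3, SciPy 1.17.1 and statsmodels 0.14.6 were used.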

Additional observations from a re-analysis of the deposited data

How the results depend on the processing

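The 10 alternatives were: median centring, quantile normalization, loess of the log2 ratios, scaling to hybridisation controls, floors at the 40th and 60th percentile, a pseudocount of 32 with and without the filter, the median over probe sets, and probe sets ending in plain _at. Pcolce, Ecm1 and Fbln1 stayed past 2-fold higher and Fbln2 stayed below 0 but within 2-fold in each, except that Pcolce has no plain _at probe set and gave no value there. Some of these outcomes were fixed in advance. The other floors could not change Pcolce, Ecm1 or Fbln2, whose signals passed them on both arrays. For Ecm1, the median over probe sets and the plain _at setting repeat its only probe set. Log2 ratios ranged from 2.55 to 3.13 for Pcolce, 2.06 to 2.68 for Ecm1, 1.79 to 3.44 for Fbln1 and -0.89 to -0.29 for Fbln2. With plain _at probe sets, 2 member probe sets instead of 5 were at least 2-fold higher, since fewer were counted, and 4 with the floor at the 60th percentile. The members' median log2 ratio ranged from 1.52 to 2.86. With scaling to hybridisation controls, the elastic fibre list had 1 gene past 2-fold upward and 1 downward. The median over probe sets gives no count of probe sets. Fstl1 was measured with the floor at the 40th percentile, at a log2 ratio of 0.10. Signals under the floor limit Efemp1, Fstl1 and the parental reading of Fbln1.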
